A study of Gallus gallus with 12 samples.

Results

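The 41 collagen genes measured in this chicken array series are described here across 4 groups of facial tissue. Members were taken by name, as every chicken probe set annotated with exactly 1 gene symbol of the collagen chain pattern (COL, a type number, A and a chain number). This gave 121 probe sets. The family itself was chosen with earlier results of these data known. The collagens are 41 of the 13008 genes with 1 symbol on the array, and each is represented by its probe set with the highest mean over the 12 arrays. After a filter on dim signals, 30 of the 41 collagen genes were tested among 10158 genes in all. All 41 symbols were also found in the RefSeq gene table of the assembly GRCg7b.

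Collagens are trimeric proteins of the extracellular matrix, built from chains that wind into a triple helix. Fibrillar collagens form the cables that give connective tissue its strength, and FACIT collagens (fibril-associated collagens with interrupted triple helices) sit on the surface of those cables. Type IV collagen is the network former of basement membranes, type VI makes beaded microfilaments near cells, type VIII is a short chain network former, and the transmembrane collagens are anchored in the cell membrane. In the facial buds of the embryo, they make up much of the matrix between neural crest mesenchyme and the epithelium that covers it, before bone and cartilage appear.

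The tissue was the maxillary prominence, the bud that grows into the side of the upper beak, taken with both its mesenchyme and its epithelium. Each embryo had received 2 beads at Hamburger-Hamilton stage 15 (25 somites), placed in the lateral head between eye and mandibular arch, and was incubated at 38 °C for 16 h, to stage 18. Group Noggin+RA had a 200 µm bead with Noggin, a secreted protein that binds bone morphogenetic proteins (BMPs) and keeps them from their receptors, and a 100 µm bead with all-trans retinoic acid (RA), a ligand of nuclear receptors made from vitamin A. Group Noggin+DMSO had Noggin and the solvent DMSO, group Tris+RA had the buffer Tris and RA, and group Tris+DMSO had both vehicles, with each factor soaked in at 1 mg/ml. Each group had 3 arrays, and 1 array was hybridised with RNA of 12 to 15 pooled prominences. In such bulk samples, fewer cells of a type and less RNA per cell cannot be told apart. All 4 groups carried beads, so none shows tissue without an implant.

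Intensities were scaled by the submitters to 1 trimmed mean, 150 on every array, and arrays correlated at 0.976 to 0.982 within groups and 0.960 to 0.981 between them. The GAPDH control probe sets, read at the 5′ end over the 3′ end as a gauge of RNA integrity, gave 0.619 to 0.736 on the 6 Noggin arrays and 0.784 to 0.849 on the 6 Tris arrays, with no overlap. The markers of maxillary mesenchyme that were measured (8 of 9, of which 7 were above background on all 12 arrays) summed to 1225 to 1791 on the Noggin arrays and 2105 to 4339 on the Tris arrays. These markers did not move as 1 set. In the average Noggin effect, 5 of the 8 were called lower and 1 higher, from -1.16 to 0.43 on the log2 scale. The sums of the other marker lists overlapped between Noggin and Tris arrays, but some lists or genes in them differed. All 8 tested red blood cell markers were above 0 in the average Noggin effect (median 0.53 on the log2 scale), with SLC4A1 and ANK1 called higher. Skeletal muscle markers summed to 1235 to 1649 in Noggin+RA, against 678 to 1152 in the other groups, with MYOD1, MYOG, PAX7, DES and MYH7 never above background. White blood cell markers summed to 1886 to 2437 in Noggin+DMSO, against 1067 to 1691 in the other groups. Retina and pigment epithelium markers summed to 938 to 1069 in Noggin+DMSO, against 425 to 761 in the other groups. OTX2 made up most of that sum, while MITF of the same list averaged 113 in Noggin+DMSO and 131 in Tris+DMSO, and PMEL was never above background. Of 3 tested markers of that list, 2 were called higher and 0 lower in the average Noggin effect (list median 0.40). In the average Noggin effect, 1 of 8 tested surface epithelium markers was called higher (list median 0.21). Of 3 tested neural crest glia markers, 1 was called lower (list median -0.08). Over all probe sets tested, 11.2% were called in that comparison (6.77% higher, 4.47% lower), and 59.4% were above 0. The share of the surface epithelium list, 12.5%, is near that of all probe sets. The part of these marker differences in the collagen results was not tested. Fits with the GAPDH ratio as a covariate are given with the called genes. Because the ratio splits Noggin from Tris arrays, such a fit cannot separate it from the Noggin difference.

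COL1A1, COL1A2, COL3A1, COL4A1, COL4A2, COL5A1, COL5A2, COL12A1, COL14A1 and COL18A1 were among the collagen genes above background on all 12 arrays. The background of an array was taken as the 95th percentile of its probe sets for other species, mostly avian viruses, which was 39.6 to 49.0 on Noggin arrays and 31.1 to 38.3 on Tris arrays. COL1A1, a chain of the main fibrillar collagen, had 1831, 2121 and 1954 in Noggin+RA, 2091, 1937 and 2232 in Noggin+DMSO, 1670, 1302 and 1625 in Tris+RA, and 2161, 1750 and 1774 in Tris+DMSO. Its partner chain COL1A2 lay between 1372 and 2991 on the 12 arrays, and the FACIT chain COL14A1, a binder of collagen I fibrils, between 1316 and 2447. Intensities of different probe sets are not on a common scale, so these levels do not rank the genes.

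The 11 collagen genes that did not pass the filter were above background on at most 3 of 12 arrays. COL28A1 was above it on 3 arrays, COL26A1 on 2, and COL4A3 and COL7A1 on 1 each. COL9A2, COL15A1, COL4A4, COL10A1, COL6A6, COL27A1 and COL25A1 were above it on 0 arrays. They include COL10A1, the collagen of hypertrophic cartilage, which had 1.43 to 13.8 on the 12 arrays, and COL7A1, the anchoring fibril collagen of skin, with 4.87 to 47.8. A signal at this level does not show that a transcript was absent.

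**Figure D1:**
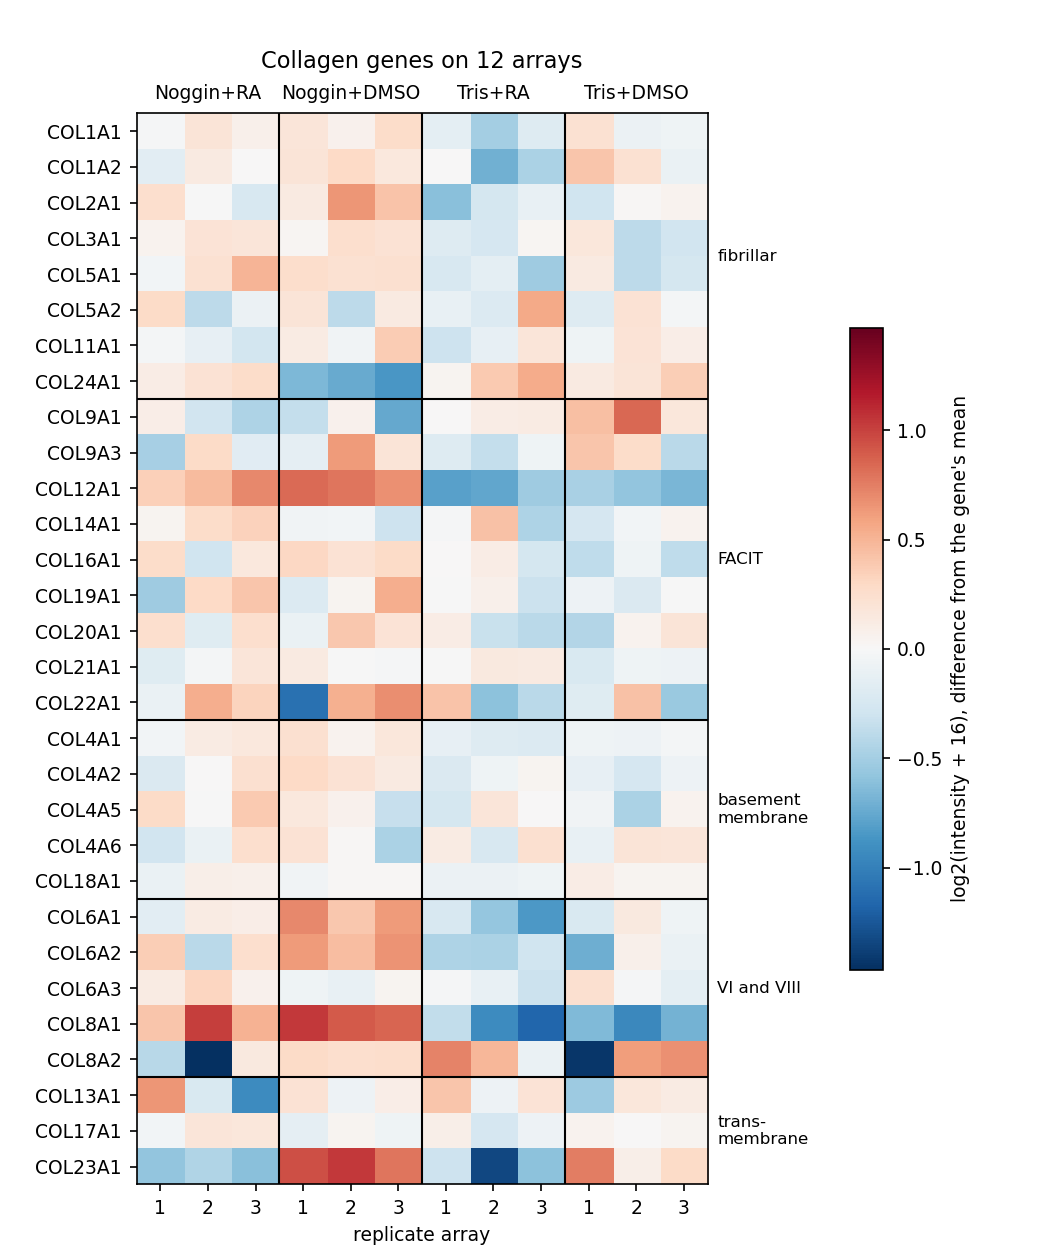
Heat map of the 30 tested collagen genes (rows, by class) on 12 arrays (columns, by group), coloured by the difference of log2(intensity + 16) from the gene's own mean over the 12 arrays. COL12A1 and COL8A1 are red on all 6 Noggin arrays and blue on all 6 Tris arrays, COL24A1 is blue only on the 3 Noggin+DMSO arrays, and COL23A1 is blue on the 6 RA arrays.

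The comparisons ask what Noggin, RA and both together did to gene expression in a bud fated to form the side of the beak, the setting in which the study looked for genes of the facial midline. Differences were tested with limma on log2(intensity + 16) over all 21354 tested chicken probe sets, and a gene was called at a Benjamini-Hochberg adjusted p below 0.05. In the average Noggin effect, the 6 arrays with Noggin against the 6 with Tris over both states of the RA bead, 7 of 30 collagen genes were called: COL12A1, COL8A1, COL6A1, COL6A2 and COL5A1 rose, and COL24A1 and COL9A1 fell. Over all probe sets tested, 11.2% were called in that comparison (6.77% higher and 4.47% lower). Such shares include dimmer probe sets of a gene and ones without a symbol, while each collagen was read by its brightest probe set. The median collagen difference was 0.20 on the log2 scale, with 24 of 30 genes above 0, beside a median of 0.06 and 59.4% above 0 for all probe sets. In Noggin+DMSO against Tris+DMSO, the median of all probe sets was 0.06 with the deposited scaling and -0.05 after median centring, so differences of that size depend on the scaling. Median centring shifts all genes of an array alike. In the average Noggin effect it lowered COL12A1 from 1.27 to 1.18 and COL5A1 from 0.47 to 0.38. The collagen median and the count of genes above 0 thus also depend on the scaling.

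In Noggin+DMSO against Tris+DMSO, 3 of 30 collagen genes were called, COL12A1 and COL8A1 higher and COL24A1 lower, where 4.95% of all probe sets were called (2.97% higher, 1.99% lower). In Noggin+RA against Tris+DMSO, COL12A1 and COL8A1 were called, both higher, where 0.81% of all probe sets were called. The same 2 genes were called higher in Noggin+RA against Tris+RA, where 0.215% were called. In Noggin+RA against Noggin+DMSO, COL24A1 was called higher and COL23A1 lower, with 0.445% of all probe sets called. The average RA effect called the same pair, COL24A1 higher and COL23A1 lower, with 0.82% called. These comparisons share groups, so their calls are not independent of each other.

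In Tris+RA against Tris+DMSO, 0 collagen genes and 0% of all probe sets were called. At an unadjusted p below 0.05, limma gave 4 of 30 collagen genes there (COL23A1, COL1A2, COL6A1 and COL1A1, each lower in Tris+RA), beside 6.41% of all probe sets. The interaction of Noggin and RA, which asks whether the RA difference with Noggin departed from the RA difference without it, likewise called 0 collagen genes and 0% of all probe sets, with 1 collagen gene (COL24A1) at an unadjusted p below 0.05, beside 5.97%. The 3 arrays of the first group did not overlap the 3 of the second for 4 collagen genes in Noggin+RA against Tris+DMSO (19.8% of all probe sets), 14 in Noggin+DMSO against Tris+DMSO (29.8%), 7 in Tris+RA against Tris+DMSO (10.4%), 8 in Noggin+RA against Tris+RA (21.1%) and 8 in Noggin+RA against Noggin+DMSO (17%). In the 6 against 6 comparisons, 2 collagen genes did not overlap in the average Noggin effect (5.1%) and 1 in the average RA effect (0.679%).

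COL12A1 had the lowest adjusted p of the collagens in the average Noggin effect. It encodes the chain of collagen XII, a FACIT collagen that coats type I fibrils in dense connective tissues such as tendon and fascia. Its intensity was 1075, 1159 and 1373 in Noggin+RA and 1506, 1457 and 1348 in Noggin+DMSO, against 476, 489 and 579 in Tris+RA and 597, 555 and 518 in Tris+DMSO. Every Noggin array was above every Tris array. The average Noggin effect was 1.27 ± 0.09 (SE) on the log2 scale, or 2.41-fold (adjusted p = 7.62e-05 in limma).

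Taken pair by pair, COL12A1 rose 2.54-fold in Noggin+DMSO against Tris+DMSO (adjusted p = 0.000592, limma), 2.12-fold in Noggin+RA against Tris+DMSO (adjusted p = 0.00527) and 2.29-fold in Noggin+RA against Tris+RA (adjusted p = 0.00295). RA had no called difference in COL12A1, with -0.11 in Tris+RA against Tris+DMSO (95% interval -0.38 to 0.15) and -0.26 in Noggin+RA against Noggin+DMSO (-0.53 to 0.01). The interaction was -0.15 (-0.53 to 0.23). These 4 calls kept their side of the threshold with any 1 array left out. With only the groups compared, those of Noggin+RA against Tris+DMSO and against Tris+RA were lost (adjusted p = 0.0634 and 0.0960, limma). With the GAPDH ratio of each array as a covariate, the average Noggin effect was 1.56 with an adjusted p of 0.149, and 0 probe sets of the array were then called in it.

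COL8A1 had the highest fold of the collagens in the average Noggin effect. It encodes a chain of collagen VIII, a short chain network former known from vessel walls and from the basement membrane of the corneal endothelium. Its intensity was 239, 374 and 258 in Noggin+RA and 378, 342 and 331 in Noggin+DMSO, against 134, 84.9 and 69.8 in Tris+RA and 107, 83.9 and 103 in Tris+DMSO. Again the Noggin and Tris arrays did not overlap. The average Noggin effect was 1.58 ± 0.15 (SE), or 2.98-fold (adjusted p = 0.000372, limma).

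The rise of COL8A1 was 3.22-fold in Noggin+DMSO against Tris+DMSO (adjusted p = 0.00247, limma), 2.65-fold in Noggin+RA against Tris+DMSO (adjusted p = 0.0163) and 2.76-fold in Noggin+RA against Tris+RA (adjusted p = 0.0212). Its RA differences were -0.06 without Noggin (95% interval -0.51 to 0.40) and -0.28 with it (-0.73 to 0.17). Endothelial markers, all 10 of which were measured, summed to 2030 to 2380 on Noggin arrays and 2031 to 2369 on Tris arrays, with 9 of them above background on all 12 arrays and none at background throughout. One of the 10, VWF, was called higher in Noggin+DMSO against Tris+DMSO (1.58-fold, adjusted p = 0.0319) and in the average Noggin effect (1.36-fold, adjusted p = 0.0255), and its part in the COL8A1 difference was not tested. Over all probe sets, 4.95% and 11.2% were called in these comparisons. The COL8A1 call against Tris+DMSO with RA present was lost without Tris+DMSO replicate 2 (adjusted p = 0.0655), and that against Tris+RA without Noggin+RA replicate 2 or 3 or Tris+RA replicate 2 or 3 (0.0675 to 0.0903). With only the groups compared, both were lost (0.0694 and 0.139, limma). The call against Tris+RA was also lost with no filter (0.0508), the replicate number as a block (0.0592) and its probe sets averaged (0.0637). With the GAPDH ratio as a covariate, the average Noggin effect was 1.18 (adjusted p = 0.490).

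COL24A1 followed another pattern: it was low in Noggin+DMSO alone. It encodes collagen XXIV, a fibrillar collagen known in mouse from developing bone and eye. Its intensity was 449, 481 and 502 in Noggin+RA, 256, 241 and 221 in Noggin+DMSO, 426, 544 and 611 in Tris+RA, and 456, 474 and 535 in Tris+DMSO. The 3 Noggin+DMSO arrays lay below all 9 others, and the other groups overlapped each other.

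COL24A1 fell by 0.98 ± 0.13 (SE) on the log2 scale in Noggin+DMSO against Tris+DMSO, or 1.97-fold (adjusted p = 0.00341, limma). In Noggin+RA, it was 1.93-fold higher than in Noggin+DMSO (adjusted p = 0.0130), and its difference from Tris+DMSO was -0.03 (95% interval -0.32 to 0.26). RA without Noggin gave 0.10 (-0.20 to 0.39). The interaction, which is the difference between the RA effects with and without Noggin, was 0.86 (0.44 to 1.27), with an unadjusted p of 0.000742 and an adjusted p of 0.406, and so was not called. The averages over both states of the other bead were -0.55 for Noggin (adjusted p = 0.00676) and 0.52 for RA (adjusted p = 0.0291).

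Single arrays, the filter, the replicate block and the GAPDH ratio bore on some of these COL24A1 calls. The higher level in Noggin+RA than in Noggin+DMSO was lost without Noggin+DMSO replicate 2 (adjusted p = 0.0679) or replicate 3 (0.0738), and the average RA effect was lost without any 1 of 10 of the 12 arrays (0.0542 to 0.0795), the exceptions being Tris+RA replicate 1 and Tris+DMSO replicate 3. That average RA effect was also lost with no filter (adjusted p = 0.05642, limma) and with the replicate number as a block (0.05655). With the GAPDH ratio as a covariate, the difference in Noggin+DMSO against Tris+DMSO was -0.46 (adjusted p = 0.773), that in Noggin+RA against Noggin+DMSO 0.78 (0.143), the average Noggin effect -0.15 (0.893) and the average RA effect 0.47 (0.0623). Cartilage markers summed to 534 to 685 in Noggin+RA, 233 to 288 in Noggin+DMSO, 672 to 725 in Tris+RA and 508 to 564 in Tris+DMSO. HAPLN1, a link protein of cartilage matrix, made up most of that sum, at 141 to 179 in Noggin+DMSO. Of 7 measured, MATN1, MATN3, SNORC and EPYC were above background on 0 arrays and 1 was above it on all 12. That list's part in the COL24A1 difference was not tested.

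COL23A1 was the collagen with a called fall under RA. It encodes collagen XXIII, a transmembrane collagen whose outer part can be shed from the cell. Its intensity was 532, 586 and 518 in Noggin+RA and 649, 307 and 524 in Tris+RA, against 1562, 1660 and 1392 in Noggin+DMSO and 1358, 851 and 978 in Tris+DMSO. All 6 arrays with RA were below all 6 with DMSO. The average RA effect was -1.29 ± 0.17 (SE), a fall of 2.45-fold (adjusted p = 0.00670, limma), and with the GAPDH ratio as a covariate it was -1.32 (adjusted p = 0.0222).

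With Noggin present, COL23A1 fell 2.77-fold in Noggin+RA against Noggin+DMSO (adjusted p = 0.0260, limma). Without Noggin, it measured 2.17-fold lower in Tris+RA than in Tris+DMSO, which did not pass (adjusted p = 0.238), and the interaction was -0.35 (95% interval -1.08 to 0.38). The call with Noggin present was lost without any 1 of the 6 arrays compared (adjusted p = 0.0541 to 0.115) and with the GAPDH ratio as a covariate (-1.56, adjusted p = 0.158). That call was also lost with no filter (0.0577) and with its probe sets averaged (0.240). The average RA effect kept its call without any 1 of the 12 arrays. Noggin alone gave 0.55 against Tris+DMSO (adjusted p = 0.177).

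**Figure D2:**
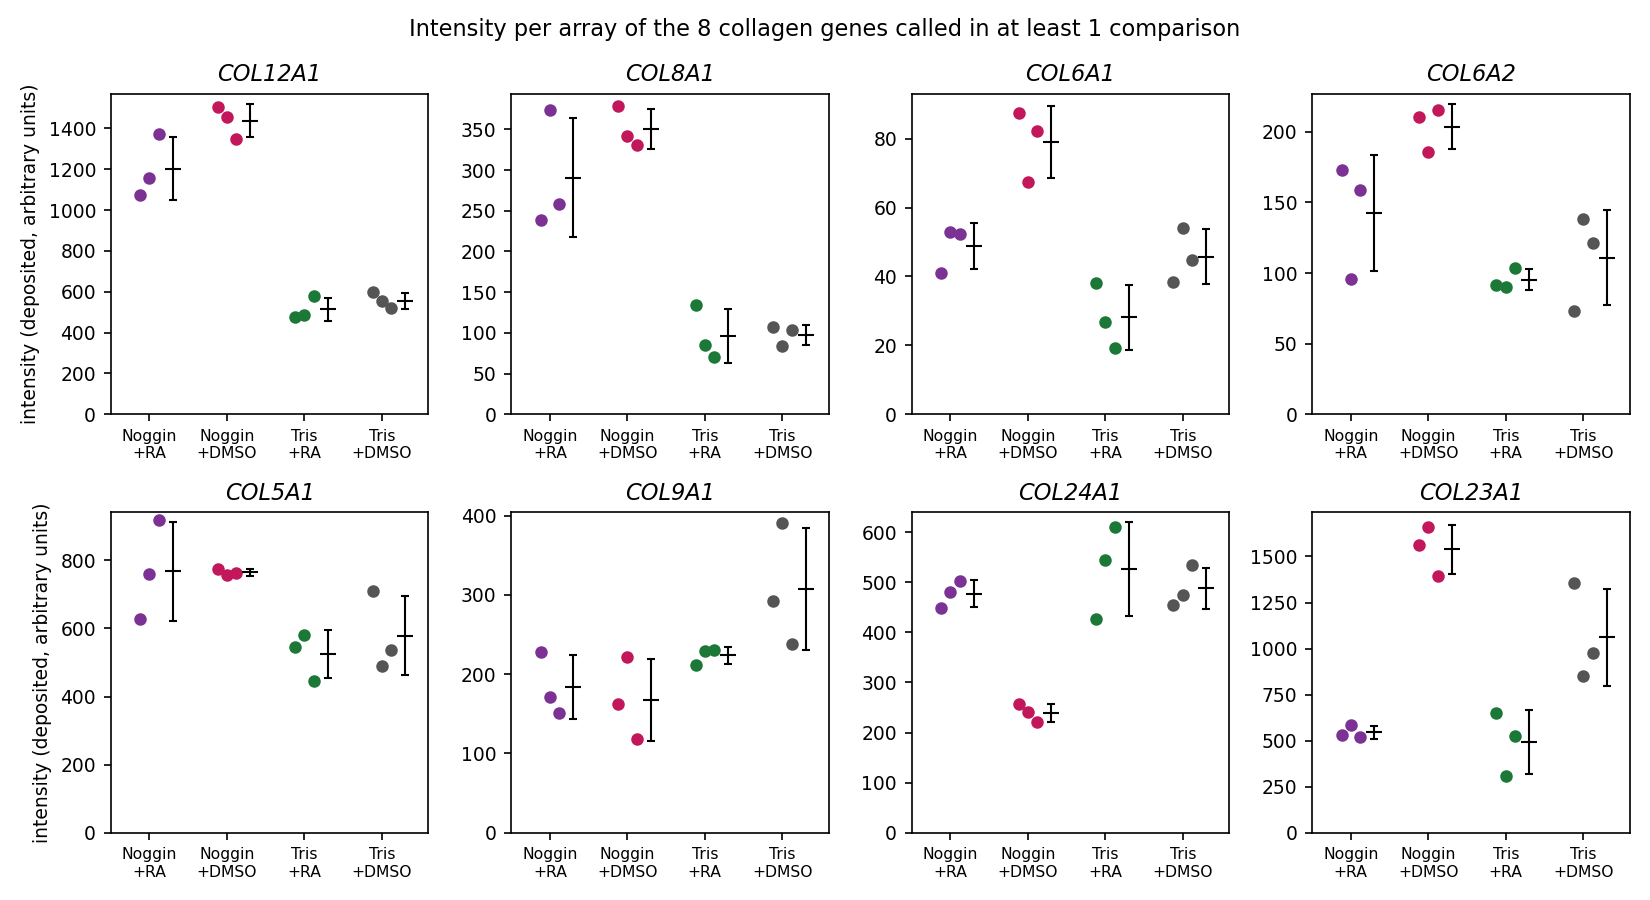
Deposited intensity (vertical axes, from 0) of the 8 collagen genes called in at least 1 comparison; coloured points are the 3 arrays of each group, and the black marks beside them are mean ± SD. COL12A1 and COL8A1 are high in both Noggin groups, COL24A1 is low in Noggin+DMSO (221 to 256), and COL23A1 is low in both RA groups (307 to 649).

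Of the 5 tested collagen VI and VIII genes, 3 rose in the average Noggin effect, COL8A1 and 2 collagen VI chains. That is 60%, beside 11.2% of all probe sets. COL6A1, COL6A2 and COL6A3 encode chains that assemble into 1 molecule. COL6A1 had 41.1, 53.0 and 52.3 in Noggin+RA and 87.6, 67.5 and 82.4 in Noggin+DMSO, against 38.2, 26.9 and 19.4 in Tris+RA and 38.5, 54.1 and 44.7 in Tris+DMSO. These values lie near the background, above which only 1 of 3 Tris+RA arrays reached. The background was itself higher on Noggin arrays (39.6 to 49.0) than on Tris arrays (31.1 to 38.3). Its part in the COL6A1 difference was not tested. The 3 Noggin+DMSO arrays were above the other 9. The average Noggin effect on COL6A1 was 0.60 ± 0.12 (SE), or 1.51-fold (adjusted p = 0.0127, limma).

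COL6A2 had 173, 95.8 and 159 in Noggin+RA and 211, 185 and 215 in Noggin+DMSO, against 91.4, 90.4 and 104 in Tris+RA and 73.3, 138 and 121 in Tris+DMSO. Noggin+DMSO was again the highest group, while Noggin+RA overlapped both Tris groups. The average Noggin effect was 0.65 ± 0.16 (SE), or 1.57-fold (adjusted p = 0.0246, limma), and was lost without Noggin+RA replicate 3, Noggin+DMSO replicate 3 or Tris+RA replicate 2 (adjusted p = 0.0513 to 0.0602). Against Tris+DMSO, Noggin+DMSO gave 0.62 for COL6A1 (adjusted p = 0.0518) and 0.83 for COL6A2 (adjusted p = 0.0520), neither of which passed. With the GAPDH ratio as a covariate, the average Noggin effect was 0.21 for COL6A1 (adjusted p = 0.879) and 0.94 for COL6A2 (adjusted p = 0.622). The average RA effect was -0.53 for COL6A1 (adjusted p = 0.0696) and -0.33 for COL6A2 (adjusted p = 0.535).

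The chain COL6A3 gave 0.12 in the average Noggin effect (adjusted p = 0.377, limma), with 216 to 344 on the 12 arrays. COL8A2, the partner chain of COL8A1, gave -0.32 (adjusted p = 0.586). Its values ran from 8.83 to 97.6 and spread widely within groups, with 9.45, 89.3 and 93.1 in Tris+DMSO alone. COL8A1 and COL8A2 thus had opposite signs, but the interval for COL8A2 was -1.12 to 0.48.

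Of the 8 tested fibrillar collagens, COL5A1 rose and COL24A1 fell in the average Noggin effect (25%, beside 11.2% of all probe sets). COL5A1, a chain of the collagen V that starts type I fibrils and limits their width, had 626, 759 and 919 in Noggin+RA and 776, 756 and 764 in Noggin+DMSO, against 547, 582 and 446 in Tris+RA and 710, 491 and 536 in Tris+DMSO. The Noggin+DMSO arrays did not overlap either Tris group, and the Noggin+RA arrays overlapped Tris+DMSO. The effect was 0.47 ± 0.12 (SE), or 1.38-fold (adjusted p = 0.0297, limma). It was lost with median centring (adjusted p = 0.0634), with no filter (0.05075) and with the replicate number as a block (0.0517). It was also lost without any 1 of 8 of the 12 arrays (0.0508 to 0.0678), namely Noggin+RA replicates 2 and 3, all 3 of Noggin+DMSO, Tris+RA replicate 3, and Tris+DMSO replicates 2 and 3. It was 0.24 with the GAPDH ratio as a covariate (adjusted p = 0.872).

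The major fibrillar chains had smaller differences, which did not pass in the average Noggin effect. COL2A1, the collagen of cartilage fibrils that also lies transiently under embryonic epithelia, gave 0.40 (adjusted p = 0.0645, limma), COL3A1, the collagen of distensible tissues, 0.30 (adjusted p = 0.0759) and COL1A1 0.25 (adjusted p = 0.0914). COL1A2 gave 0.21 (adjusted p = 0.286), COL11A1, a minor chain of cartilage fibrils, 0.01 (adjusted p = 0.970) and COL5A2 -0.08 (adjusted p = 0.772). COL1A2 had 2258, 1372 and 1624 in Tris+RA, against 2991, 2638 and 2106 in Tris+DMSO, which overlapped, for a difference of -0.57 that did not pass (adjusted p = 0.510). For COL1A1, the Tris+RA arrays did not overlap the Tris+DMSO arrays, but the difference of -0.31 did not pass either (adjusted p = 0.740).

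Of the 9 tested FACIT collagens, COL12A1 rose and COL9A1 fell in the average Noggin effect (22.2%, beside 11.2% of all probe sets). COL9A1, a chain of the collagen IX that decorates cartilage fibrils, had 228, 171 and 151 in Noggin+RA and 163, 222 and 119 in Noggin+DMSO, against 212, 229 and 231 in Tris+RA and 292, 391 and 239 in Tris+DMSO. Both Noggin groups lay below Tris+DMSO and overlapped Tris+RA. The effect was -0.56 ± 0.16 (SE), a fall of 1.47-fold (adjusted p = 0.0436, limma). It was lost with 1 added before log2 (adjusted p = 0.0537), with quantile normalization (0.0526) and with no filter (0.0728). It was also lost without any 1 of 9 of the 12 arrays (0.0598 to 0.0954), all except Noggin+RA replicate 1, Noggin+DMSO replicate 2 and Tris+DMSO replicate 3. It was -0.12 with the GAPDH ratio as a covariate (adjusted p = 0.960).

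Among the other FACIT collagens, COL16A1 gave 0.31 (adjusted p = 0.0838, limma), COL20A1, a collagen described in chick embryos, 0.27 (adjusted p = 0.226), and COL22A1, known from the junctions of muscle and tendon, 0.29 (adjusted p = 0.551). COL14A1 gave 0.09, COL9A3 0.10, COL19A1 0.18 and COL21A1 0.03, with adjusted p between 0.492 and 0.847. COL16A1 in Noggin+DMSO, at 85.4, 79.2 and 84.1, did not overlap Tris+DMSO, at 47.5, 62.3 and 47.4, for a difference of 0.54 (adjusted p = 0.0676). COL22A1 and COL19A1 were above background on only some arrays of each group.

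The 5 tested basement membrane collagens had 0 calls in any comparison. COL4A1 and COL4A2, the chains of the common type IV network, gave almost equal average Noggin effects of 0.23, with adjusted p of 0.0507 and 0.117 (limma). COL4A1 had 413, 463 and 474 in Noggin+RA and 501, 442 and 476 in Noggin+DMSO, against 390, 369 and 366 in Tris+RA and 406, 401 and 415 in Tris+DMSO. Noggin+DMSO did not overlap Tris+DMSO, while 1 Noggin+RA array, at 413, lay within the Tris+DMSO range. COL4A5 and COL4A6, which belong to type IV networks of specialised membranes, gave 0.18 and -0.12, and COL18A1, the source of endostatin, 0.02 with a 95% interval of -0.13 to 0.16.

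Of the 3 tested transmembrane collagens, only COL23A1 was called, in the RA comparisons given above. COL17A1, which anchors epithelial cells to their basement membrane in hemidesmosomes, had 130 to 180 on the 12 arrays and an average Noggin effect of 0.05 (95% interval -0.13 to 0.22). COL13A1, found at cell adhesions, gave -0.09 (-0.59 to 0.41), with 219, 112 and 63.2 in Noggin+RA alone.

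**Figure D3:**
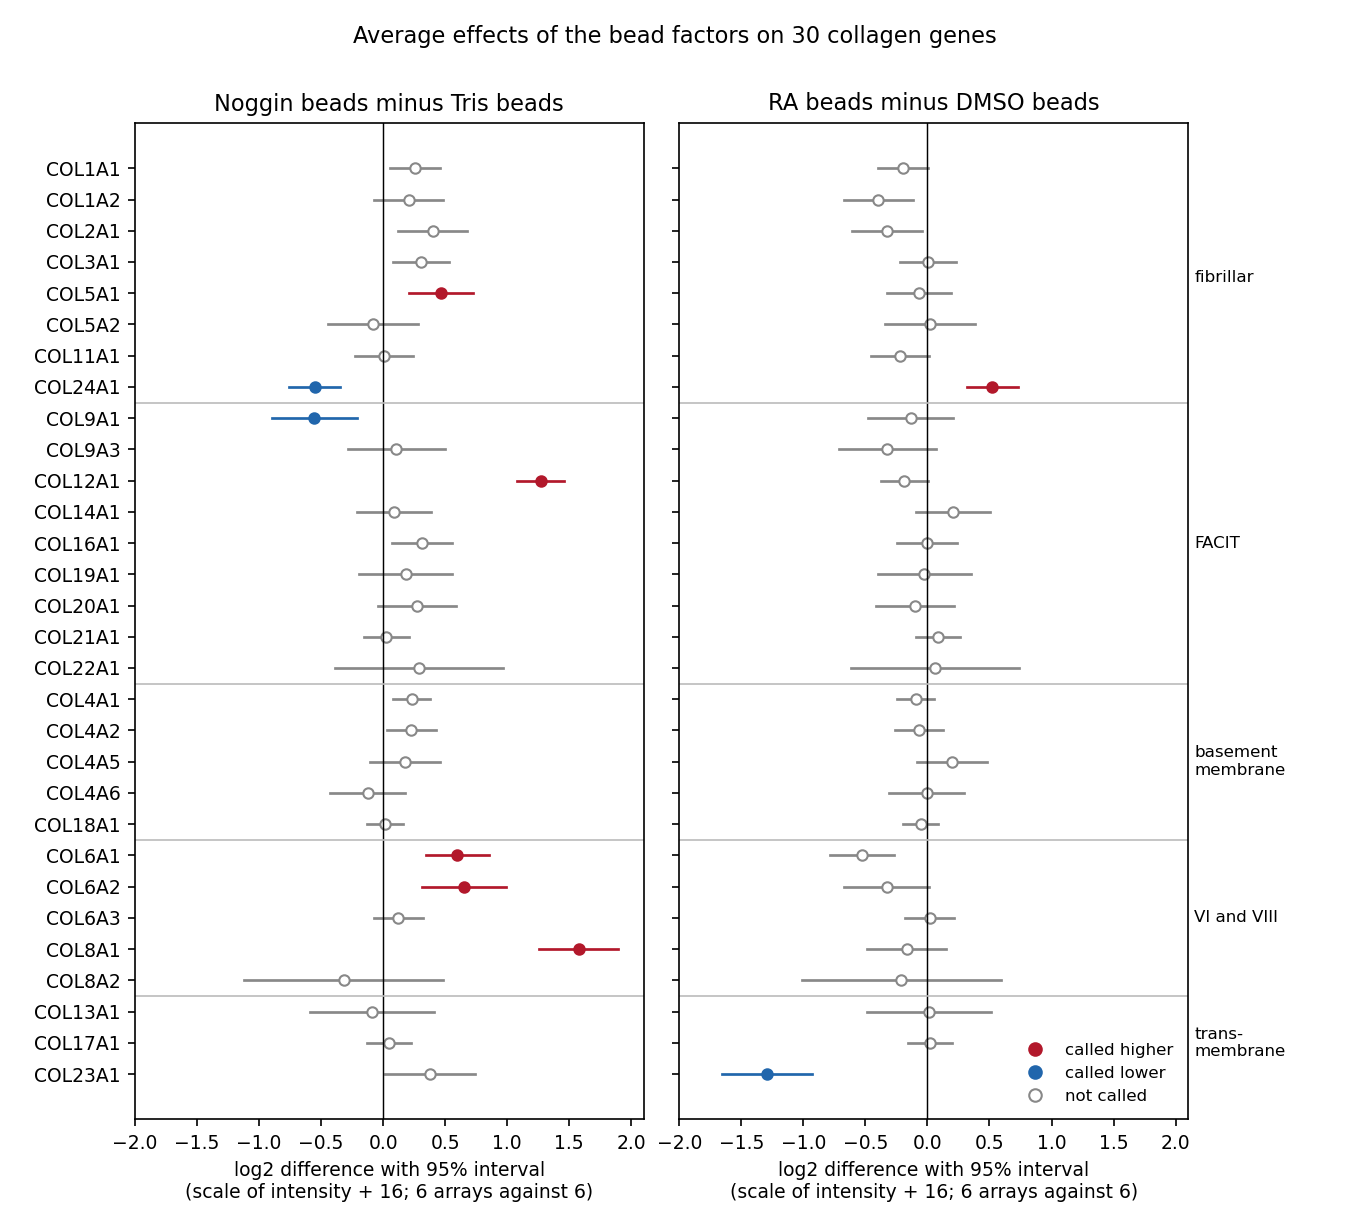
Log2 differences with 95% intervals (horizontal axes, scale of intensity + 16) of the 30 tested collagen genes for Noggin beads minus Tris beads (left) and RA beads minus DMSO beads (right), 6 arrays against 6; filled points were called. On the left, COL8A1 at 1.58 and COL12A1 at 1.27 stand to the right of the other genes, and on the right COL23A1 at -1.29 and COL24A1 at 0.52 are the 2 called.

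In the RefSeq table of GRCg7b, 12 of the 41 collagen genes stand next to another collagen gene in the order of coding genes, as 6 pairs. COL6A1 and COL6A2 both rose in the average Noggin effect, by 0.60 and 0.65. COL4A1 and COL4A2 gave 0.23 each and were not called. COL3A1 gave 0.30 and its neighbour COL5A2 -0.08, COL9A1 gave -0.56 and its neighbour COL19A1 0.18, and COL4A5 gave 0.18 and its neighbour COL4A6 -0.12. In these 3 pairs, neighbouring genes differed in sign, though COL9A1 alone of the 6 genes was called. COL4A3 and COL4A4 did not pass the filter.

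Other probe sets of the same genes gave a check on the calls. COL12A1 had 2 further tested probe sets, and both were called higher in each comparison in which the brightest was (1.39 and 1.66 in Noggin+DMSO against Tris+DMSO, limma). COL24A1 had 1 further probe set, which fell by 1.36 in Noggin+DMSO against Tris+DMSO and was 1.37 higher in Noggin+RA than in Noggin+DMSO, called both times. It read 333, 244 and 279 in Noggin+RA, 102, 102 and 96.8 in Noggin+DMSO, 306, 359 and 337 in Tris+RA, and 204, 335 and 330 in Tris+DMSO. The 3 Noggin+DMSO arrays were again below the other 9.

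For COL8A1, 2 further probe sets had the same sign. In the average Noggin effect, 1 gave 0.33 and was not called. The other was above background on 0 of 6 Tris arrays and passed the filter only through Noggin arrays, so its rise of at least 1.35-fold is no independent check. For COL23A1, 2 further probe sets were lower under RA, by -0.51 and -0.29 on average, and neither was called. When all probe sets of COL23A1 were averaged, its average RA effect was -0.70 (adjusted p = 0.138, limma). The second probe set of COL6A2 gave -0.11 in the average Noggin effect, the opposite sign, and the mean of both gave 0.27 (adjusted p = 0.128). Second probe sets of COL6A1 and COL5A1 gave 0.64 and 0.22 and were not called, COL9A1 had none tested, and a dimmer probe set of COL4A2 was called at 0.37 (adjusted p = 0.0394). Which of 2 probe sets that differ is nearer to the transcript cannot be told from these values.

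**Figure D4:**
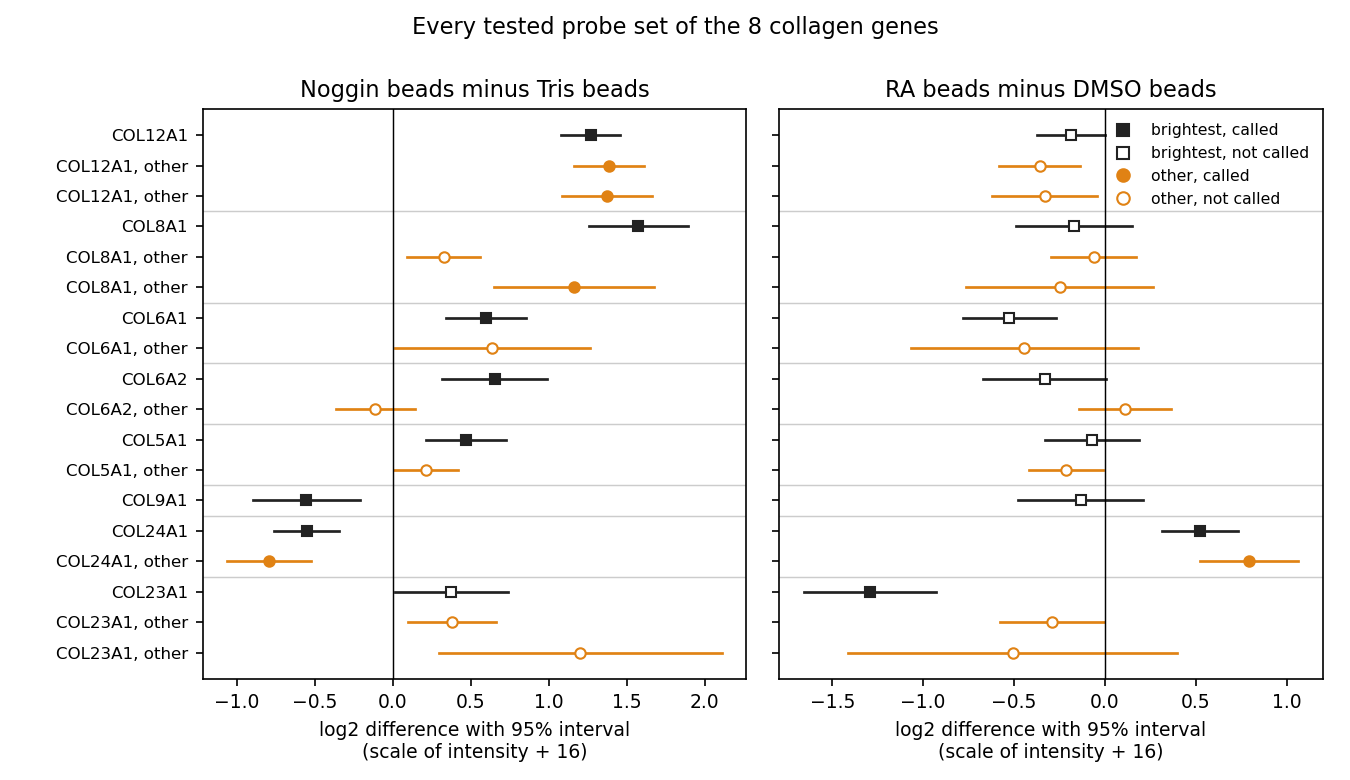
Log2 differences with 95% intervals (horizontal axes, scale of intensity + 16) for every tested probe set of the 8 called collagen genes, black squares for the brightest of a gene and orange circles for the others, filled where called. All 3 COL12A1 probe sets lie between 1.27 and 1.39 under Noggin and both COL24A1 probe sets lie on the same side of 0, while the 2 COL6A2 probe sets lie on opposite sides and the brightest COL23A1 probe set lies apart from the other 2 under RA.

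Genes that make, modify, bind or break down collagen were taken from lists written from general knowledge, but with earlier results of these data known. Of these genes, 74 were tested. In the average Noggin effect, 14 of the 74 rose and 3 fell, 23.0% in all, beside the 11.2% of all probe sets. Each of the 74 was read by its brightest probe set, while the shares of all probe sets include dimmer ones and ones without a symbol. The shares are thus of unlike units, and the lists were not chosen blind to these data. In Noggin+DMSO against Tris+DMSO, 10 rose and 3 fell (17.6%, beside 4.95% of all probe sets), and 3 of these 13 calls (PLOD2, OGN and TIMP3) were kept without any 1 array. In Noggin+RA, OGN and TIMP4 rose against Tris+DMSO and OGN and P4HA3 against Tris+RA, 2.70% each, beside 0.81% and 0.215% of all probe sets. Without certain single arrays, the first comparison lost TIMP4 (without any 1 of 10 arrays) and the second P4HA3 (without any 1 of 4), which leaves 1 call in each, OGN. OGN passed the filter only through the Noggin arrays. The counts and shares above that include OGN therefore rest in part on that filter. The 4 other comparisons, the average RA effect and the interaction among them, called 0 of the 74. Every call among these genes lost its side of the threshold with the GAPDH ratio as a covariate, and 0 of them changed sign. The ratio splits Noggin from Tris arrays and so shares their difference, so these losses are no result particular to these genes.

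Enzymes of the endoplasmic reticulum that fold and modify collagen chains gave 4 rises and 1 fall of 18 tested in the average Noggin effect. That is 27.8%, beside 11.2% of all probe sets. P4HA3, a catalytic subunit of prolyl 4-hydroxylase, had 106, 136 and 147 in Noggin+RA and 129, 146 and 139 in Noggin+DMSO, against 62.7, 52.6 and 33.9 in Tris+RA and 72.0, 85.9 and 63.3 in Tris+DMSO, so that Noggin and Tris arrays did not overlap. It rose 1.96-fold (adjusted p = 0.00143, limma). P3H2, a prolyl 3-hydroxylase, rose 2.21-fold (adjusted p = 0.0124), with only 3 of 6 Tris arrays above background. FKBP14, a prolyl isomerase, rose 1.52-fold (adjusted p = 0.00728) and PLOD1, a lysyl hydroxylase, 1.26-fold (adjusted p = 0.0185, lost with median centring).

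PLOD2, the lysyl hydroxylase of the collagen telopeptides, went the other way. It had 387, 385 and 388 in Noggin+RA and 379, 315 and 277 in Noggin+DMSO, against 589, 524 and 482 in Tris+RA and 557, 640 and 504 in Tris+DMSO, with no overlap. Its average Noggin effect was -0.61, a fall of 1.53-fold (adjusted p = 0.00426, limma). PLOD1 and PLOD2, which hydroxylate different parts of the chains, thus differed in sign.

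The proteases and oxidases that trim and cross-link collagen gave 0 calls of 6 tested in each comparison. ADAMTS3, a procollagen protease, gave 0.44 and LOXL2, a lysyl oxidase, 0.30 (adjusted p = 0.0572, limma) in the average Noggin effect. LOX itself was above background on 0 arrays.

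Proteins that coat or bind fibrils gave 3 rises of 8 tested in the average Noggin effect (37.5%, beside 11.2% of all probe sets). OGN, the small proteoglycan osteoglycin, had 68.2, 77.3 and 110 in Noggin+RA and 76.0, 77.7 and 70.8 in Noggin+DMSO, against 19.2, 24.3 and 19.7 in Tris+RA and 26.8, 28.6 and 26.3 in Tris+DMSO. All Noggin arrays were above background and all Tris arrays were not, so the rise was at least 1.86-fold, with the Tris values raised to the background of their arrays (adjusted p = 8.85e-05, limma). OGN passed the filter only through the Noggin arrays, so its place among the called genes rests on that filter too. SPARC, a collagen-binding glycoprotein, rose 1.38-fold (adjusted p = 0.00892) and DCN, the fibril-coating proteoglycan decorin, 1.34-fold (adjusted p = 0.0108).

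Laminins and their basement membrane partners gave 2 rises of 13 tested, LAMA4, a laminin chain of vessel walls, at 1.45-fold (adjusted p = 0.0246, limma) and FRAS1, a protein under embryonic epithelia, at 1.24-fold (adjusted p = 0.0351). Among 7 tested collagen receptors, ITGA1, an integrin subunit that binds type IV collagen, fell 1.24-fold (adjusted p = 0.0289). The called shares of these lists, 15.4% and 14.3%, are near the 11.2% of all probe sets in the average Noggin effect. All 6 Noggin arrays of ITGA1, at 70.0 to 88.8, were below all 6 Tris arrays, at 91.4 to 116. LAMA4, FRAS1 and ITGA1 each lost their call without certain single arrays (without any 1 of 2, 8 and 6 arrays). The FRAS1 call was also lost with quantile normalization, with median centring, with no filter and with its probe sets averaged.

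Of 11 tested collagenases and their inhibitors, 3 inhibitors rose under Noggin and 0 proteases were called. That is 27.3% of the list, beside 11.2% of all probe sets in the average Noggin effect. TIMP3, an inhibitor that stays bound to matrix, had 228, 251 and 278 in Noggin+RA and 313, 236 and 317 in Noggin+DMSO, against 217, 178 and 166 in Tris+RA and 164, 107 and 144 in Tris+DMSO. The Noggin and Tris arrays did not overlap, and the average rise was 1.62-fold (adjusted p = 0.00641, limma). TIMP4, above background on 1 of 3 Tris+DMSO arrays, rose 1.62-fold (adjusted p = 0.00833) and TIMP2 1.27-fold (adjusted p = 0.0367). The TIMP2 call was lost without any 1 of 9 arrays, with median centring, with quantile normalization and with no filter.

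Among 11 tested regulators of collagen genes, CCN2, a matricellular protein that acts with TGF-beta, and TGFB2, a TGF-beta ligand, rose in the average Noggin effect by 1.76-fold (adjusted p = 0.0147, limma) and 1.41-fold (adjusted p = 0.0144). SNAI1, a zinc finger repressor of epithelial genes, fell 1.69-fold (adjusted p = 0.0134). These calls are 27.3% of the list, beside 11.2% of all probe sets. CCN2 had 161, 149 and 226 in Noggin+RA and 353, 371 and 391 in Noggin+DMSO, against 84.5, 181 and 127 in Tris+RA and 201, 138 and 134 in Tris+DMSO. The Noggin+DMSO arrays stood above all others, and Noggin+RA overlapped both Tris groups. SOX9, the activator of cartilage collagen genes, was above background on 5 of 12 arrays.

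**Figure D5:**
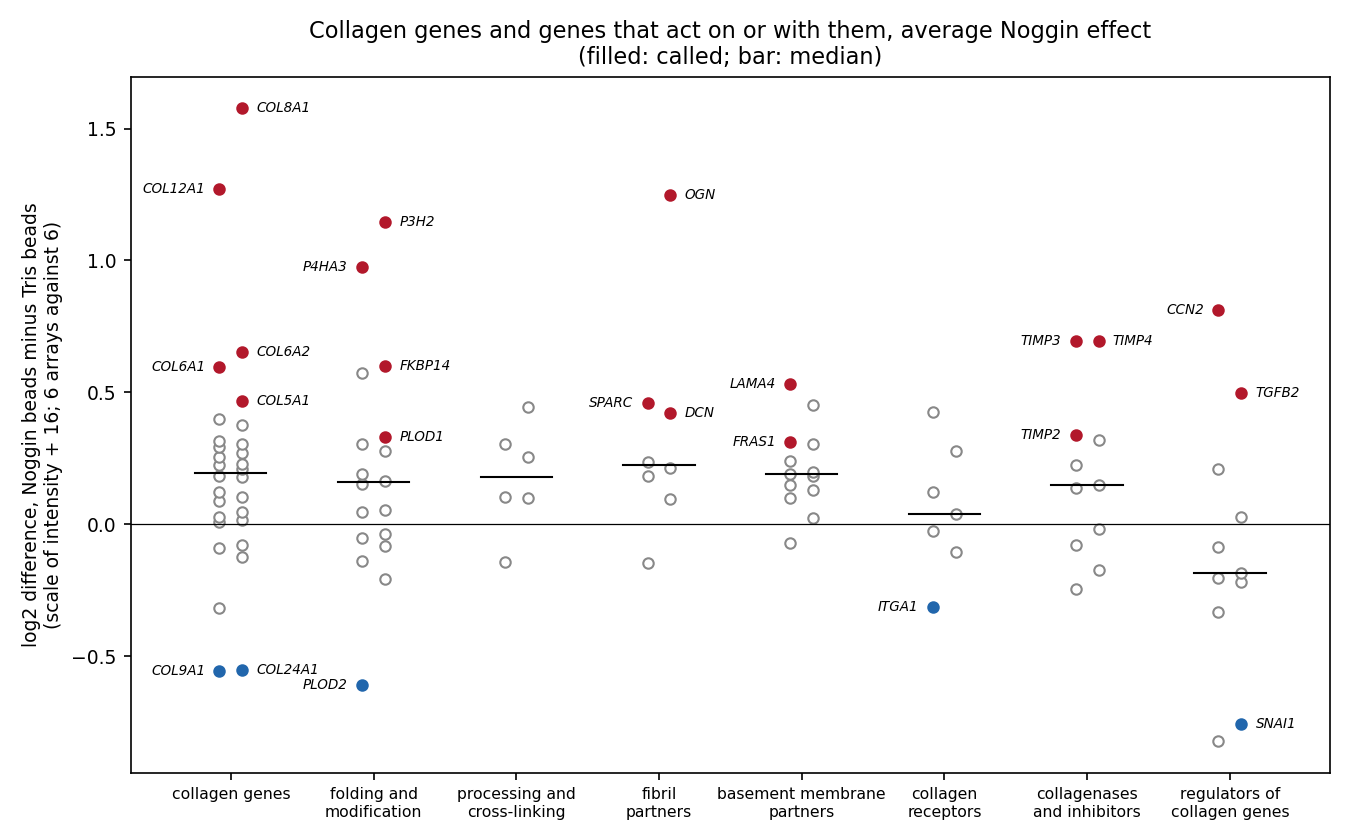
Log2 difference of Noggin beads minus Tris beads (vertical axis, scale of intensity + 16, 6 arrays against 6) for the tested collagen genes and for genes of 7 lists that act on or with collagen; each point is a gene, filled red where called higher and blue where called lower, and bars are list medians. COL8A1, COL12A1, OGN, P3H2 and P4HA3 are the highest called points, and PLOD2, SNAI1, COL9A1 and COL24A1 the lowest called ones.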

How the data were processed

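Gene expression was measured on 12 Affymetrix chicken arrays, 3 per group, each from 500 ng of pooled RNA labelled in 2 cycles, per the labels' protocols. The values are linear intensities per probe set as deposited by the authors, and every array had the same trimmed mean (150.03, with 2% left out at each end). The software that made them is not given in the sources used here. No relation between arrays of different groups was known here beyond a shared replicate number.

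Probe sets were named from the platform annotation. Of 37693 chicken probe sets, 27166 had 1 symbol, 177 several and 10350 none. A probe set was tested if it was above the 50th percentile of its array on at least 3 of 12 arrays, which left 21354. The test was limma 3.58.1 in R 4.3.3 on log2(intensity + 16), with 1 mean per group over all 12 arrays and Benjamini-Hochberg adjustment over all tested probe sets. Folds are on that scale and understate changes of dim probe sets. p-values measure the spread between pools. The fitting script was tested on simulated data. Array number limits the precision.

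All collagens could be named. Genes of the partner lists were named where called, and otherwise by size of difference, up to 4 per list. LOX and SOX9 were named after their values were seen. The collagens and lists were chosen with earlier results of these data known. Alternatives were the value added, the normalization, the filter, the replicate number as a block, the mean of a gene's probe sets, the GAPDH ratio as a covariate, fits on the compared groups alone, and each array left out. No sequences are shown.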

Additional observations from a re-analysis of the deposited data

How the results depend on the processing

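The 18 collagen calls were each recomputed under 21 or 22 other settings, which all draw on the same 12 arrays. Of the 387 pairs of a call and a setting, 308 kept the call, 79 lost it and 0 reversed its direction. With the GAPDH ratio as a covariate, which splits Noggin from Tris arrays and so shares their difference, 17 of 18 calls were lost, and collagen calls numbered 0 in the average Noggin effect, in Noggin+DMSO and in Noggin+RA against Tris+DMSO, in Noggin+RA against Tris+RA and in Noggin+RA against Noggin+DMSO, and 1 in the average RA effect. In Noggin+DMSO against Tris+DMSO, where 3 were called, there were 6 with 64 added, 6 with the stricter filter and 5 with probe sets averaged. In Noggin+RA against Tris+RA, where 2 were called, there was 1 with no filter, 1 with the replicate block, 1 with probe sets averaged and 0 with only the groups compared, which also gave 0 in Noggin+RA against Tris+DMSO. In Noggin+RA against Noggin+DMSO there was 1 with no filter and 1 with probe sets averaged, and in the average RA effect 1 with each of these and with the replicate block. The causes were not tested. Leaving out 1 array gave 1 to 3 calls in Noggin+RA against Tris+DMSO, 3 to 5 in Noggin+DMSO against Tris+DMSO, 1 to 2 in Noggin+RA against Tris+RA, 0 to 2 in Noggin+RA against Noggin+DMSO, 4 to 7 in the average Noggin effect (4 without replicate 3 of Noggin+RA or of Noggin+DMSO) and 1 to 3 in the average RA effect. Over the other settings, the GAPDH ratio among them, the average Noggin effect had 0 to 9 collagen calls. Tris+RA against Tris+DMSO and the interaction stayed at 0 collagen calls in each setting run. Samples with the same replicate number did not deviate together (r -0.098 to 0.069 over 18 pairs, median -0.009), so these values show no pairing by number. Such correlations cannot tell whether samples of the same number were prepared together. With the replicate block, 15 of 18 collagen calls and 28 of 34 partner calls were kept. Partner calls were kept in 567 of 731 such pairs of a call and a setting and reversed in 0. Probe sets near background, such as those of COL19A1, COL21A1 and COL4A6, leave differences that these arrays could not resolve. COL6A1, also near background, was called in the average Noggin effect, but its size depended on the value added before log2 (0.80 with 1 added, 0.34 with 64 added).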

Other observations

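HAPLN1, which makes up most of the cartilage marker sum given with COL24A1 and was picked after its values were seen, was like COL24A1 lowest in Noggin+DMSO. Its intensity was 529, 494 and 400 in Noggin+RA, 179, 141 and 162 in Noggin+DMSO, 575, 569 and 563 in Tris+RA, and 452, 426 and 426 in Tris+DMSO. It fell by 1.36 on the log2 scale in Noggin+DMSO against Tris+DMSO (adjusted p = 0.000592, limma) and was 1.47 higher in Noggin+RA than in Noggin+DMSO (adjusted p = 0.00122). The 3 Noggin+DMSO arrays were below the other 9 for HAPLN1, as for COL24A1. The share of all probe sets with this order is not given here. In Tris+RA, HAPLN1 lay above all Tris+DMSO arrays, while COL24A1 overlapped them. The other tested cartilage marker gave -0.15 in Noggin+DMSO against Tris+DMSO. Both genes share these arrays, so the likeness is a description.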
